A study of Rattus norvegicus with 12 samples.

Results

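The interferon-stimulated genes of rat PAC1 cells were followed across 12 poly(A) RNA-seq libraries, as 39 named genes that were all found among the 33294 genes of the count table. The 39 genes were listed by name as well-known targets of interferon signalling, with no threshold on an expression value. They were chosen with earlier results of these data known, so counts of them beside all genes are a description. PAC1 cells derive from smooth muscle of the rat pulmonary artery and can be held in a differentiated or a more proliferative state by how often and how thinly it is passaged. Differentiated cells were given control siRNA (D1), an siRNA against Rbpms (RBPMS KD1) or siRNAs against Mbnl1 and Mbnl2 together (MBNL KD), and proliferative cells were given the control siRNA (P), with 3 libraries in each group. RBPMS and MBNL proteins are RNA-binding regulators of splicing. Every group was thus reverse-transfected with siRNA and lipid, at 90 pmol, and transfected again, at 24 h by the sample labels, which place the harvest 48 h after the second treatment, whereas the methods give later times for both. All 12 libraries came from 1 cell line, and the labels do not say whether the libraries of a group were separate cultures (the methods state biological replicates), so p-values measure the spread between these libraries.

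Interferons are secreted proteins that bind paired receptors and signal through the kinases JAK1 and TYK2 to a complex of transcription factors that holds STAT2 and IRF9. This complex binds the interferon-stimulated response element in the promoters of its targets, which include antiviral GTPases, RNA-sensing enzymes and the ubiquitin-like modifier ISG15. IRF1 and IRF7 can drive the same element, and double-stranded RNA sensed in the cytosol or in endosomes is a known trigger of interferon production.

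The siRNA sense strands are shown because they are what differs in treatment between the 3 groups of differentiated cells, and all letters are in lower case since no part is marked.
C2 (control, in D1 and P): aagguccggcucccccaaaug
RBPMS: ggcggcaaagccgagaaggcgaaca
MBNL1: cacggaauguaaauuugcauu
MBNL2: gaagaguaauugccugcuuuu
One siRNA sequence was used per target, so the loss of a target and the siRNA that caused it cannot be told apart. Rbpms lay between 24.7% and 25.5% of the D1 mean in the RBPMS KD1 libraries and between 6.24% and 6.38% in P. Mbnl1 lay between 23.6% and 24.1% and Mbnl2 between 29.1% and 30.1% of the D1 mean in the MBNL KD libraries, so the labels of both knockdowns were borne out.

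RefSeq promoters of the GRCr8 assembly, each running from 250 bases before to 50 bases after a gene's start, were matched by symbol for 31 of the 39 genes, all but Mx2, Oas2, Usp18, Isg15, Ifit2, Dhx58, Rtp4 and Zbp1. The core of the response element, GAAANNGAAA, was searched on both strands (TTTCNNTTTC on the other strand). It was found in 21 of the 31 promoters (67.7%), against 1312 of all 33469 promoters in the table (3.92%). The gamma-activated pattern TTCNNNGAA, which reads the same on both strands and was counted separately also where it overlapped the first, was found in 6 of the 31 (19.4%) and in 8.87% of all promoters. The upstream stretches below belong to the 8 genes with this element whose RNA passed the call rule in at least 2 comparisons, and capitals mark the element, 2 overlapping copies in Oas1a, Oas1b and Bst2.
Gbp4: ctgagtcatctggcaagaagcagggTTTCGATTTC
Oasl2: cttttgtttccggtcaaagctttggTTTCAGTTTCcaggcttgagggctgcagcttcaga
Bst2: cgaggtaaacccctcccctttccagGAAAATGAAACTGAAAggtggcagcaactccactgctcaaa
Oas1a: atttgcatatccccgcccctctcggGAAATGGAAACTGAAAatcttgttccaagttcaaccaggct
Oas1b: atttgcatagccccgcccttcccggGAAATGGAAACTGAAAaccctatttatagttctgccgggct
Irf7: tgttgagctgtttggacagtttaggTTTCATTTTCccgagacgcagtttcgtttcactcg
Gbp2: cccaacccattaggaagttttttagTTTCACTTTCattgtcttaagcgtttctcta
Gbp5: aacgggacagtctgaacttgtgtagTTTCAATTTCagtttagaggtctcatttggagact
All are written in the direction of the gene and end before its start. On GRCr8 they lie at chr2:233978451-233978485 (Gbp4, + strand), chr12:47383302-47383361 (Oasl2, - strand), chr16:18255058-18255123 (Bst2, - strand) and chr12:41395871-41395936 (Oas1b, - strand). Oas1a lies at chr12:41330400-41330465 (+ strand). The others lie at chr1:205800058-205800117 (Irf7, - strand), chr2:234005671-234005726 (Gbp2, + strand) and chr2:233910918-233910977 (Gbp5, + strand). Among the 22 genes called higher in P, 9 of 15 matched promoters held it, and among the 17 others 12 of 16 did.

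Total counts per library lay between 80842635 and 90771289. A gene was called when its adjusted p was under 0.05 (edgeR's quasi-likelihood test, Benjamini-Hochberg over all genes tested) and its absolute log2 fold change was over 1. Values below are counts scaled to a common library size, which compare libraries but not genes, since gene length was not used. The 8 smooth muscle markers had summed values of 870347 to 914855 in D1, 18716 to 19888 in P, 433760 to 449217 in RBPMS KD1 and 694962 to 705331 in MBNL KD. Of the 8 macrophage markers, Ptprc, Adgre1 and Itgam had at most 3 scaled counts in any library of D1, RBPMS KD1 and MBNL KD, and in P Ptprc reached 3.79 scaled counts in a library. Aif1 and Lyz2 were too low to be tested, with Lyz2 at 5.66, 9.48 and 15.2 in P and 0, 3.09 and 0 in D1. Cd68 had group means of 63.8 to 76.1 and passed in no comparison. The list's sum (5177 to 5544 in D1, 4339 to 4535 in P, 7497 to 7714 in RBPMS KD1 and 4669 to 4948 in MBNL KD) was carried by Cd14. On the log2 scale Cd14 was 0.52 above D1 in RBPMS KD1, -0.29 from D1 in P and -0.17 in MBNL KD, all past the adjusted p. Csf1r of that list was called higher in MBNL KD (2.46-fold, adjusted p = 2.4e-04), from 24.5, 19.6 and 26.5 in D1 to 51.7, 61.3 and 61.3. The 6 endothelial markers summed to between 67.0 and 72.4 in D1, 488 and 606 in P, 162 and 165 in RBPMS KD1 and 83.2 and 128 in MBNL KD. Cdh5 was at 119, 131 and 116 in P and at 0 in every other library. Kdr, Tie1 and Pecam1 had counts too low to be tested in any comparison. Of that list Cdh5, Tek (13.1-fold) and Vwf (2.46-fold) were called higher in P, and in RBPMS KD1 Vwf (2.33-fold) and Tek, from a mean of 23.9 to one of 59.8. The 5 lymphocyte markers reached at most 25.6 in any library, of which Cd3e was called higher in P (3.49-fold, adjusted p = 0.00234, from a mean of 4.77 to one of 17.0), and Siglech, which defines plasmacytoid dendritic cells, was at or near 0 throughout. Of the other genes of that list, Tcf4 was -0.29 from D1 in P, and Irf8, which is also a pathway gene, was called higher in P (2.35, SE 0.097, adjusted p = 5.6e-21), from a mean of 135 to one of 692. The list's sum lay between 3318 and 3719 in all groups. Whether these markers or the fall of smooth muscle markers had a part in the results below was not tested. In bulk RNA, more cells that express a gene and more RNA per cell cannot be told apart.

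In proliferative cells most interferon-stimulated genes were higher than in D1. Of the 38 tested, 22 were called higher (background 16.4% of all 16814 genes tested) and 1, Ifit3, was called lower (background 11.2%). At the adjusted p alone, 34 were higher and 4 lower, against 40.4% and 37.6% of all genes. The values of P and D1 did not overlap for any of the 38, nor for 79.1% of all genes tested. Their median log2 fold change was 1.35, against 0.02 over all genes. The heat map of single libraries shows the P libraries close to each other for most genes. For some genes the P libraries overlapped a knockdown, among them Irf7, Isg15 and Lgals3bp (RBPMS KD1) and Gbp4 (MBNL KD).

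**Figure D1:**
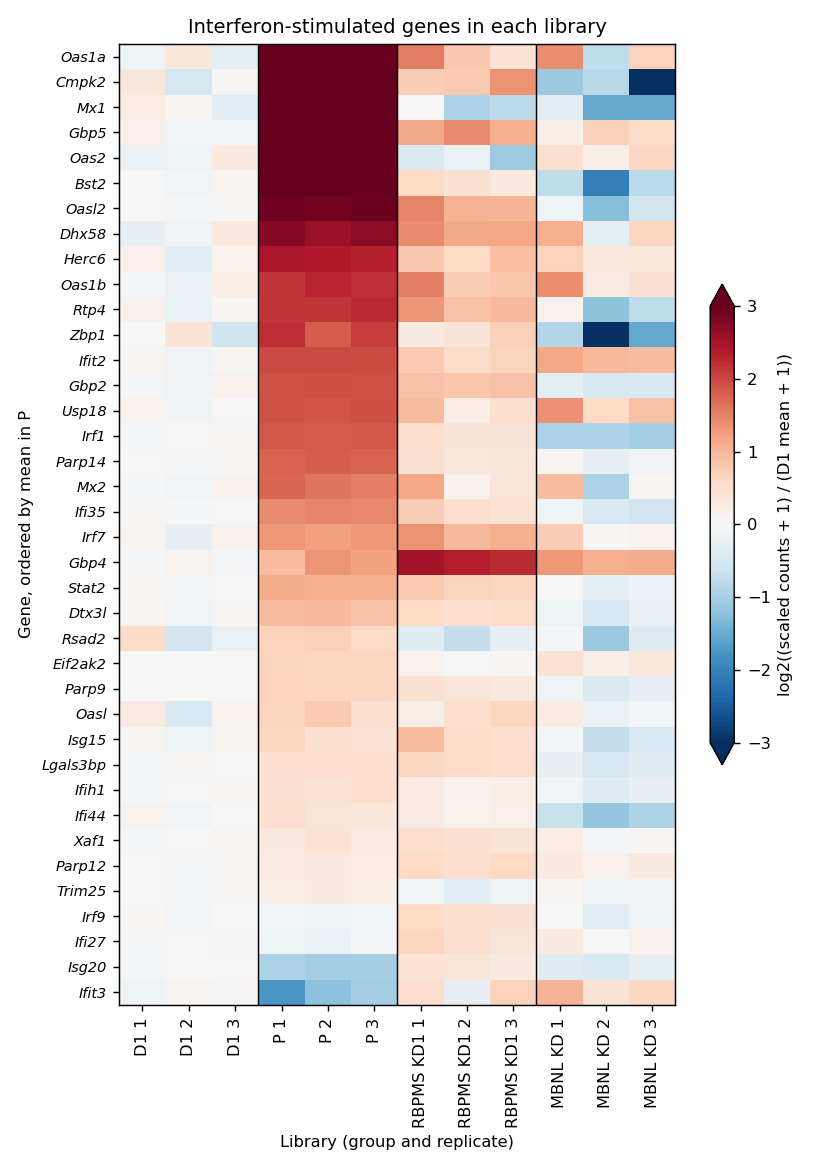
Each row is an interferon-stimulated gene and each column a library, coloured by log2 of scaled counts (plus 1) over the D1 mean (plus 1), with colours ending at 3 in either direction. The 3 P libraries are red for most genes and blue for Isg20 and Ifit3, RBPMS KD1 is mostly pale red, and the MBNL KD libraries are mixed and differ among themselves.

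In RBPMS KD1 the same genes were more often higher than lower, by smaller amounts. Of 38 tested, 9 were called higher (3.06% of all 15904 genes tested) and 0 lower (1.62%), and no other tool or scaling called any lower at these thresholds. At an unadjusted p under 0.05, 2 were lower in edgeR, 2 in DESeq2 and 2 in limma. At the adjusted p alone, 30 were higher and 2, Mx1 and Trim25, were lower, where 29.5% of all genes were higher and 29.5% lower. The median was 0.56, with 0.00 over all genes, and the libraries of RBPMS KD1 and D1 did not overlap for 32 of the 38 (63.4% of all genes). The 9 called were Oas1a, Oas1b, Oasl2, Irf7, Dhx58, Gbp4, Gbp5, Cmpk2 and Rtp4, of which limma on the normalised values called 3, Oasl2, Irf7 and Gbp4.

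In MBNL KD, calls among these genes were few and in both directions. Of 37 tested, 2 were called higher (Ifit2 and Gbp4, background 6.10% of 16053 genes) and 3 lower (Mx1, Bst2 and Cmpk2, background 4.14%), and at the adjusted p alone 12 were higher and 17 lower, where 33.8% of all genes were higher and 33.7% lower. The median was -0.08, and the libraries of MBNL KD and D1 did not overlap for 21 of the 37 (70.3% of all genes). Without MBNL KD replicate 2, 5 were called higher and 1 lower, and without replicate 1 the counts were 1 and 4. The comparisons of P and of both knockdowns use the same 3 D1 libraries, so they are not independent of each other.

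Set directly against each other, with no shared library, more of these genes were lower in MBNL KD than were higher. Of 37 tested, 9 were called lower in MBNL KD than in RBPMS KD1 (background 6.03% of 16111 genes) and 1, Oas2, higher (background 5.88%), a call that was lost in 7 other settings and with any 1 of the 6 libraries left out. At the adjusted p alone 25 were lower and 4 higher, against 34.5% and 35.1% of all genes, the libraries did not overlap for 27 (71.8% of all genes), and the median was -0.65. The 9 were Oasl2, Irf1, Isg15, Bst2, Ifi44, Gbp2, Gbp4, Cmpk2 and Rtp4. Without MBNL KD replicate 1 their number was 16.

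**Figure D2:**
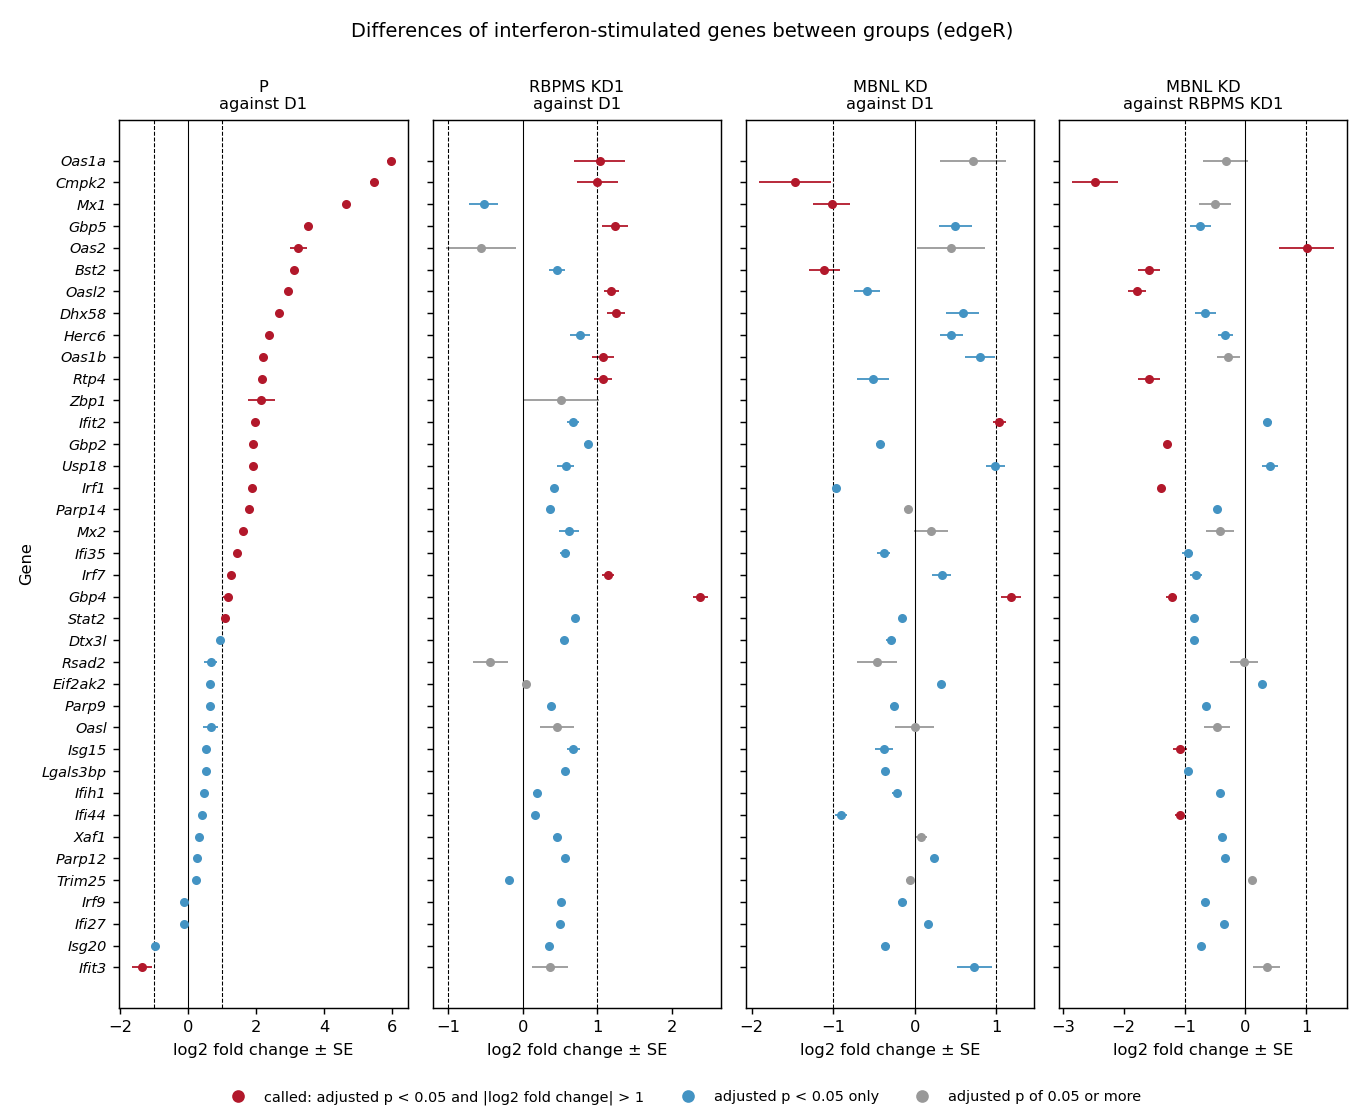
Points are edgeR log2 fold changes of the interferon-stimulated genes with bars of 1 standard error, in 4 comparisons with separate axes, the dashed lines standing at -1 and 1 and the genes in the order of the P libraries. In P 22 genes lie beyond 1 in red, in RBPMS KD1 most points lie between 0 and 1, in MBNL KD they lie on both sides of 0, and in the direct comparison most lie below 0.

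Among the transcription factors, Irf1, an activator that is itself induced by interferons, had replicates that lay close together. Irf1 stood at 2598, 2701 and 2799 scaled counts in D1 and 9890, 9726 and 9809 in P, a 3.62-fold rise (log2 fold change 1.86, SE 0.032, adjusted p = 6.9e-32). It stood at 3769, 3551 and 3523 in RBPMS KD1, a difference of 0.42 (SE 0.040, adjusted p = 3.4e-10), and at 1395, 1412 and 1336 in MBNL KD, -0.96 (SE 0.046, adjusted p = 1.7e-17). The 4 groups held separate ranges, MBNL KD lowest and P highest, and the knockdowns differed by -1.39 (SE 0.044, adjusted p = 3.8e-22). Irf7, the factor that amplifies type I interferon production, was at 1049, 843 and 1098 in D1, 2453, 2344 and 2437 in P, 2527, 1962 and 2082 in RBPMS KD1 and 1665, 1026 and 1072 in MBNL KD. It was called higher in P (1.27, SE 0.061, adjusted p = 4.4e-19) and in RBPMS KD1 (1.14, SE 0.079, adjusted p = 4.6e-13), whose ranges overlapped each other, while MBNL KD overlapped D1. Stat2, which carries the activating domain of that complex, was at 5655, 5444 and 5584 in D1 and at 12064, 11909 and 11606 in P, 1.09 higher (SE 0.028, adjusted p = 8.7e-27). It was 0.70 higher in RBPMS KD1 (8714 to 9549) and 0.15 lower in MBNL KD on the log2 scale (4589 to 5525, overlapping D1). Irf9, which gives the complex its DNA contact, did not follow Stat2 in P: its mean was 2470 in D1, 2284 in P, 3526 in RBPMS KD1 and 2227 in MBNL KD, with log2 fold changes of -0.12, 0.52 and -0.15, and all 3 passed the adjusted p.

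All 5 dynamin-like and guanylate-binding GTPases were called higher in P, as were 16.4% of all genes tested. Mx1, which blocks viral ribonucleoproteins, was at 187, 170 and 127 in D1 and 4171, 3932 and 4124 in P, a 25.2-fold rise (4.65, SE 0.069, adjusted p = 1.1e-33). It went the other way in the knockdowns, with 160, 83.0 and 93.2 in RBPMS KD1 (-0.52, SE 0.197, adjusted p = 0.024) and 127, 55.4 and 54.7 in MBNL KD (-1.02, SE 0.227, adjusted p = 0.00023). The RBPMS KD1 value ran from -0.87 without RBPMS KD1 replicate 1 to -0.35 without RBPMS KD1 replicate 2. Replicate 1 of each knockdown overlapped D1, and the MBNL KD value was under the fold threshold without D1 replicate 1 (-0.91), D1 replicate 2 (-0.99), MBNL KD replicate 2 (-0.81) or MBNL KD replicate 3 (-0.82), and with limma on the normalised values (-0.99). Mx2 lies beside Mx1 with 1 protein-coding gene between them in RefSeq's GRCr8 order, and it was at 1047, 1023 and 1185 in D1 and 3616, 3314 and 3080 in P (1.62, SE 0.055, adjusted p = 2.4e-23). In RBPMS KD1 Mx2 was at 2407, 1186 and 1401 (0.62, SE 0.138, adjusted p = 3.2e-04), and 0.26 without RBPMS KD1 replicate 1. In MBNL KD its libraries held 2058, 559 and 1116, which surround D1 on both sides, and its difference of 0.20 (SE 0.208, adjusted p = 0.41) became -0.38 without replicate 1.

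Gbp4 was the one of these 5 GTPase genes that was highest in RBPMS KD1, as were Gbp1, Igtp, Irgm and Irgm2 of the wider pathway list, and with Cmpk2 it was called in all 4 comparisons. It was at 129, 144 and 128 in D1, 253, 335 and 311 in P, 756, 693 and 637 in RBPMS KD1 and 329, 285 and 292 in MBNL KD. The RBPMS KD1 libraries all lay above those of P, a difference that was not tested, and MBNL KD overlapped P. The differences from D1 were 1.16 in P (SE 0.132, adjusted p = 1.5e-09), 2.38 in RBPMS KD1 (SE 0.100, adjusted p = 7.5e-18) and 1.18 in MBNL KD (SE 0.125, adjusted p = 1.3e-09). The call in P was lost with voom and quantile normalization (0.70), and those in P (0.59) and MBNL KD (0.87) with limma on the normalised values. Its neighbours Gbp2 and Gbp5, which like it code for GTPases that gather on pathogen membranes, were highest in P. Gbp2 was at 1906, 1828 and 2141 in D1, 7317, 7502 and 7315 in P, 3592, 3508 and 3612 in RBPMS KD1 and 1632, 1366 and 1399 in MBNL KD. These ranges were separate, with log2 fold changes of 1.91, 0.87 and -0.42, the last 2 under the fold threshold, and the knockdowns differed by -1.29 (SE 0.050, adjusted p = 5.9e-20). Gbp5 was at 74.5, 63.9 and 63.2 in D1 and 768, 751 and 807 in P (3.52, SE 0.109, adjusted p = 1.4e-24). It was at 150, 180 and 144 in RBPMS KD1 (1.24, SE 0.176, adjusted p = 6.7e-07) and 75.6, 111 and 98.5 in MBNL KD (0.50, SE 0.208, adjusted p = 0.0347).

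The oligoadenylate synthetases make the signal that activates RNase L when they meet double-stranded RNA. Oas1a showed the highest fold of all 38 genes in P, from 20.4, 28.9 and 18.3 in D1 to 1467, 1381 and 1366, a 61.8-fold rise (5.95, SE 0.117, adjusted p = 2.9e-30). In the knockdowns it was low and spread, at 67.6, 40.5 and 30.1 in RBPMS KD1 (1.03, SE 0.346, adjusted p = 0.0119) and 60.7, 12.9 and 37.2 in MBNL KD (0.71, SE 0.405, adjusted p = 0.123). The MBNL KD value of Oas1a was 0.14 without replicate 1 and 1.12, a call, without replicate 2. The RBPMS KD1 value was no longer a call without RBPMS KD1 replicate 1 (0.65), D1 replicate 1 (0.96) or D1 replicate 3 (0.90). The same held with the replicate number as a block (0.99), voom with quantile normalization (0.82) and limma on the normalised values (0.43). Oas1b was at 188, 169 and 220 in D1, 860, 944 and 878 in P, 551, 328 and 343 in RBPMS KD1 and 511, 230 and 263 in MBNL KD. Its log2 fold changes were 2.21 (SE 0.090, adjusted p = 4.5e-21), 1.08 (SE 0.149, adjusted p = 3.5e-07) and 0.80 (SE 0.185, adjusted p = 0.00034), and replicate 1 was the high library in both knockdowns. Without RBPMS KD1 replicate 1 its value there was 0.80 and not a call, nor was it a call without D1 replicate 2. In MBNL KD Oas1b was 0.36 without replicate 1 and 1.02, a call, without replicate 2.

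Oasl2, an Oas-like relative, was at 334, 322 and 344 in D1, 2518, 2468 and 2582 in P, 917, 686 and 682 in RBPMS KD1 and 305, 136 and 227 in MBNL KD. The 4 ranges did not overlap, with differences from D1 of 2.92 (SE 0.059, adjusted p = 5.9e-30), 1.19 (SE 0.097, adjusted p = 1.5e-11) and -0.58 (SE 0.159, adjusted p = 0.00193). The last value of Oasl2 was -0.89 without MBNL KD replicate 1 and -0.32 without replicate 2. The knockdowns differed by -1.78 (SE 0.151, adjusted p = 8.3e-12), or 3.44-fold. Oas2 was at 12.2, 12.4 and 17.3 in D1 and 147, 127 and 127 in P (3.24, SE 0.261, adjusted p = 4.3e-13). It stayed at or under 21.9 in every knockdown library, and its difference between the knockdowns (1.01, adjusted p = 0.0476) was the call lost in those fits. Oasl was 0.66 higher in P (adjusted p = 0.00691), from a mean of 62.4 to one of 98.7. Oas3 had no count in D1 or RBPMS KD1 and at most 6.60 scaled counts in a library elsewhere, too few to be tested.

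The 6 genes of the ISG15 and ubiquitin system were all higher in P at the adjusted p (40.4% of all genes tested), and 2 were called (16.4% of all genes). Usp18, the protease that removes ISG15 and restrains the receptor, was at 576, 492 and 542 in D1, 2014, 1983 and 2060 in P, 1036, 622 and 745 in RBPMS KD1 and 1394, 808 and 983 in MBNL KD. It was the gene of this group that was higher in MBNL KD than in RBPMS KD1 (0.40, SE 0.134, adjusted p = 0.00905), although their ranges overlapped. Its differences from D1 were 1.91 (SE 0.059, adjusted p = 2e-24), 0.58 (SE 0.113, adjusted p = 6.4e-05) and 0.99 (SE 0.116, adjusted p = 1e-08). The MBNL KD value of Usp18 ran from 0.74 without MBNL KD replicate 1 to 1.15, a call, without replicate 2. Isg15 itself was at 535, 479 and 556 in D1, 815, 730 and 712 in P, 1008, 768 and 746 in RBPMS KD1 and 505, 318 and 384 in MBNL KD. It differed from D1 by 0.52, 0.68 and -0.38, none of them a call, while MBNL KD was 1.07 below RBPMS KD1 on the log2 scale (SE 0.114, adjusted p = 1.4e-09). Herc6, the rodent ligase that attaches ISG15, was at 189, 136 and 183 in D1 and 907, 906 and 853 in P (2.38, SE 0.095, adjusted p = 2.3e-21), and it was 0.77 and 0.45 higher in RBPMS KD1 and MBNL KD. Parp9 and its partner Dtx3l, adjacent on the chromosome, were 0.65 and 0.93 higher in P, 0.38 and 0.55 higher in RBPMS KD1, and -0.26 and -0.29 apart from D1 in MBNL KD. Trim25, a ubiquitin ligase of the RNA sensor pathway, moved least in P within this group, by 0.23. It was -0.18 from D1 in RBPMS KD1 and -0.06 in MBNL KD (adjusted p = 0.223).

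Of the effectors that bind or degrade RNA or act on nucleotides, Cmpk2 and Ifit2 were called higher in P, Ifit3 was called lower and Isg20 fell just short of that. Cmpk2, a mitochondrial nucleotide kinase, was at 45.9, 24.7 and 36.7 in D1 and 1567, 1575 and 1605 in P, a 43.9-fold rise (5.46, SE 0.108, adjusted p = 3.5e-30). It was at 60.5, 62.7 and 92.2 in RBPMS KD1 (1.00, SE 0.273, adjusted p = 0.00232) and 15.9, 19.8 and 2.19 in MBNL KD (-1.47, SE 0.441, adjusted p = 0.0044). Those calls rested on few counts: the first was 0.78 without RBPMS KD1 replicate 3 and 0.80 without D1 replicate 2, and neither it nor the second, without MBNL KD replicate 3, was then a call. With limma on the normalised values they were 0.53 and -0.71, and neither was a call. Rsad2, which codes for viperin and is the next gene to Cmpk2 on the chromosome, was at 163, 75.2 and 96.8 in D1 and 180, 185 and 168 in P, 0.66 higher (SE 0.189, adjusted p = 0.00211). The P value of Rsad2 ran from 0.44 without D1 replicate 2 to 1.03, a call, without D1 replicate 1. Ifit2 and Ifit3, neighbours that code for RNA-binding proteins, went opposite ways in P. Ifit2 was at 437, 388 and 424 in D1, 1643, 1643 and 1618 in P, 716, 611 and 665 in RBPMS KD1 and 936, 823 and 810 in MBNL KD, with differences of 1.97 (SE 0.063, adjusted p = 4.6e-24), 0.68 (SE 0.081, adjusted p = 3.2e-08) and 1.04 (SE 0.078, adjusted p = 7e-13). The last was not a call without D1 replicate 2 (0.99) or MBNL KD replicate 1 (0.97), or with limma on the normalised values (0.93). Ifit3 was at 54.1, 62.9 and 61.1 in D1 and 17.0, 24.6 and 28.5 in P (-1.35, SE 0.293, adjusted p = 0.00011, with -0.94 and no call with limma on the normalised values). Its mean was 76.8 in RBPMS KD1 (adjusted p = 0.19) and 98.5 in MBNL KD (0.73, adjusted p = 0.00327). Isg20, an exonuclease, was at 1770, 1813 and 1816 in D1 and 931, 886 and 906 in P, -0.99 on the log2 scale (SE 0.052, adjusted p = 5.1e-18), and it was 0.36 above D1 in RBPMS KD1 and -0.36 in MBNL KD. In P Isg20 was called lower with limma on the normalised values (-1.03) and with voom and quantile normalization (-1.04). The same held without D1 replicate 1 (-1.01) or P replicate 1 (-1.01).

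Among the sensors, Dhx58, which codes for LGP2, a regulator of the cytosolic RNA sensors, was at 140, 153 and 203 in D1, 1111, 994 and 1085 in P, 444, 364 and 368 in RBPMS KD1 and 353, 135 and 259 in MBNL KD. The differences from D1 were 2.68 (SE 0.096, adjusted p = 9.5e-23), 1.25 (SE 0.126, adjusted p = 1.1e-09) and 0.59 (SE 0.204, adjusted p = 0.0116), the last with overlapping ranges and at 0.25 without MBNL KD replicate 1 and 0.90 without replicate 2. Ifih1, the sensor MDA5, differed far less, by 0.45, 0.19 and -0.22, all past the adjusted p. Eif2ak2, the double-stranded RNA-dependent kinase PKR, was 0.65 higher in P and 0.32 higher in MBNL KD, and in RBPMS KD1 its difference was 0.04 (adjusted p = 0.231). Zbp1, a sensor of Z-form nucleic acid, was at 8.16, 11.3 and 5.09 in D1 and 41.5, 31.3 and 37.9 in P (2.15, SE 0.403, adjusted p = 1.4e-05, with 0.57 and no call with limma on the normalised values), and it was too low in MBNL KD, at 3.98, 0 and 2.19, to be tested there.

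Of the membrane, secreted and other products, Bst2, which codes for the virion tether tetherin, was at 262, 247 and 271 in D1, 2340, 2193 and 2260 in P, 393, 360 and 319 in RBPMS KD1 and 154, 61.3 and 147 in MBNL KD. No ranges overlapped, and the differences from D1 were 3.12 (SE 0.064, adjusted p = 9.7e-30), 0.46 (SE 0.103, adjusted p = 0.00035) and -1.11 (SE 0.190, adjusted p = 6.7e-06). Without MBNL KD replicate 2 the last was -0.79 and not a call. Rtp4 was at 222, 179 and 211 in D1, 905, 907 and 969 in P, 514, 374 and 403 in RBPMS KD1 and 221, 88.0 and 120 in MBNL KD. It was called higher in P (2.18, SE 0.086, adjusted p = 1.8e-21) and in RBPMS KD1 (1.08, SE 0.118, adjusted p = 5.8e-09, with 0.93 and no call without replicate 1 and 0.99 without D1 replicate 2), and MBNL KD was 1.59 below RBPMS KD1 on the log2 scale (adjusted p = 3.9e-09). Ifi44 was at 2672, 2336 and 2465 in D1 and 1574, 1116 and 1321 in MBNL KD, -0.90 on the log2 scale (SE 0.072, adjusted p = 3.3e-12), and it was 0.40 higher in P and 0.17 higher in RBPMS KD1. Ifi35 was called in P only among the comparisons with D1, from 930, 877 and 900 to 2398, 2481 and 2464 (1.43, SE 0.049, adjusted p = 2.8e-23). The abundant Lgals3bp and Ifi27 differed by little: Lgals3bp by 0.51, 0.57 and -0.36 and Ifi27 by -0.13, 0.50 and 0.16 in P, RBPMS KD1 and MBNL KD. The direction of Ifi27 in P turned under quantile normalization (0.01). Xaf1, a pro-apoptotic gene, differed by 0.31 in P and 0.46 in RBPMS KD1, and by 0.08 in MBNL KD (adjusted p = 0.284). The ADP-ribosyltransferase genes Parp14 and Parp12 were both higher in P, Parp14 from 4681, 4499 and 4751 in D1 to 15908, 16389 and 15963 (1.79, SE 0.028, adjusted p = 7.3e-33) and Parp12 by 0.25. In RBPMS KD1 they were 0.37 and 0.57 higher.

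**Figure D3:**
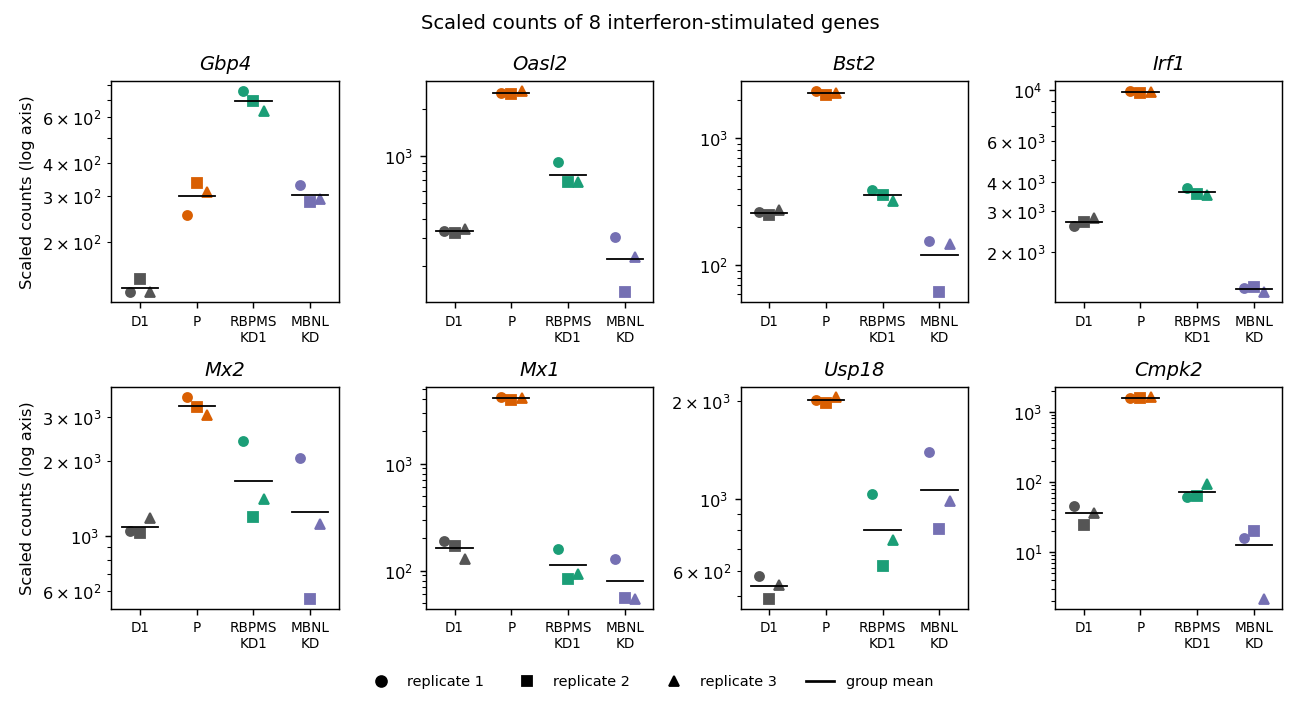
Scaled counts of 8 interferon-stimulated genes on log axes, with a marker for each of the 3 replicates and a bar at the group mean. Gbp4 is highest in RBPMS KD1 (637 to 756), the other 7 are highest in P, and replicate 1 (circle) lies well above the others in MBNL KD for Mx2, Mx1 and Usp18.

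Within each knockdown the interferon-stimulated genes varied together between replicates more than other genes did. Over the 37 genes with a mean of at least 20 scaled counts, MBNL KD replicate 1 held the highest value of its group for 32 and replicate 2 the lowest for 30, where over all 15289 such genes these shares were 36.9% and 33.0%. RBPMS KD1 replicate 1 was highest for 28 of the 37 (33.7% of all genes), and D1 replicate 2 was lowest for 24 (34.7% of all genes). In P no library was highest or lowest for more than 17. The median log2 ratio to the D1 mean was 0.08, -0.35 and -0.11 in the MBNL KD libraries and 0.62, 0.50 and 0.47 in those of RBPMS KD1. In P it lay between 1.29 and 1.32. The ratio of the highest to the lowest library had a median log2 value of 0.43 in MBNL KD, 0.28 in RBPMS KD1, 0.17 in D1 and 0.09 in P, beside 0.10, 0.11, 0.10 and 0.10 over all genes. More than a 2-fold spread was seen for 10 of the genes in MBNL KD, against 4.04% of all genes. After the sparse Cmpk2, the widest were Oas1a and Mx2, at 2.15 and 1.88 on the log2 scale. Irf1, in contrast, had MBNL KD libraries of 1336 to 1412, so the spread was not shared by every gene.

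**Figure D4:**
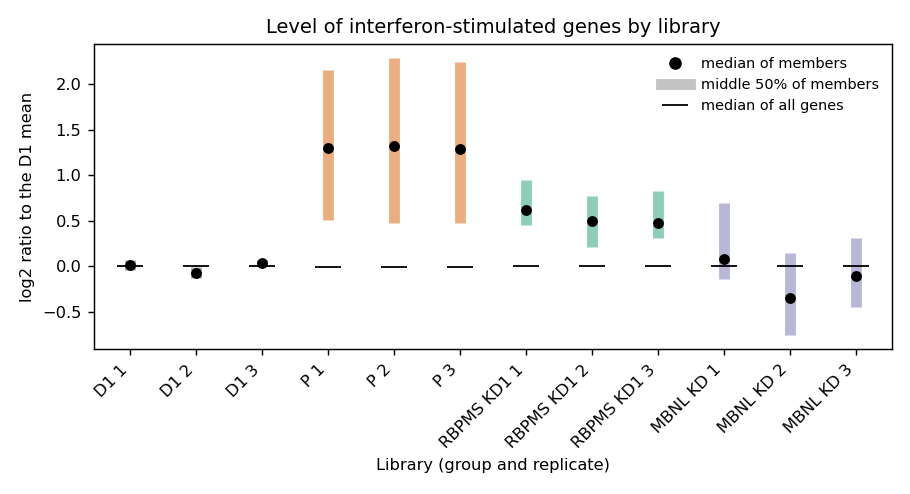
Points are the median log2 ratio of the interferon-stimulated genes to their D1 mean in each library, thick bars hold the middle 50% of these genes, and dashes mark the median of all genes. All P libraries stand near 1.3, those of RBPMS KD1 between 0.47 and 0.62, and those of MBNL KD between -0.35 and 0.08 with replicate 1 highest.

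The ligands, receptors and sensors of the pathway are given from a wider list of 128 further interferon pathway genes, of which 118 were in the count table. That list too was chosen with earlier results of these data known. None of the 9 interferon genes in the table passed the filter on low counts in any comparison. Ifnb1, Ifna5, Ifnl1 and Ifnl3 were at 0 in all 12 libraries, and the highest count of any interferon gene in any library was 5. Ifna1 had 3, 5 and 4 counts in the P libraries, 2, 0 and 2 in D1, 0 in RBPMS KD1 and 0, 0 and 4 in MBNL KD, too few to compare groups. Of the 9 receptor chains and kinases, Ifnar1 was called higher in P (1.17, SE 0.029, adjusted p = 2.1e-27), from 6825, 7276 and 7059 in D1 to 15413, 16179 and 16303, and it was 0.13 and -0.14 from D1 in RBPMS KD1 and MBNL KD. Jak1 was 0.90 and Jak2 0.70 higher in P. Tyk2 was 0.52 higher in P, 0.33 higher in RBPMS KD1 and -0.42 in MBNL KD. Irf3, which acts before any interferon is made, was -0.33 from D1 in P, -0.16 in RBPMS KD1 and 0.20 in MBNL KD.

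Ddx58, the sensor RIG-I, followed Irf1 in its order of groups, with differences of 0.64, 0.16 and -0.38 in P, RBPMS KD1 and MBNL KD. Mavs, the adaptor of RIG-I and MDA5, was lower in MBNL KD than in the other groups (1130, 1165 and 983, against 1688, 1619 and 1620 in D1), by -0.58 (SE 0.058, adjusted p = 3.6e-10), and was -0.17 and 0.17 from D1 in P and RBPMS KD1. Tlr3, the endosomal receptor of double-stranded RNA, was 0.72 higher than in D1 in RBPMS KD1, 0.55 higher in MBNL KD and 0.29 higher in P. Sting1, the adaptor of the cytosolic DNA sensor, was at 431, 413 and 353 in D1, 1316, 1528 and 1458 in P, 855, 898 and 846 in RBPMS KD1 and 706, 680 and 665 in MBNL KD. It was called in P (1.84, SE 0.074, adjusted p = 2.9e-21) and RBPMS KD1 (1.12, SE 0.078, adjusted p = 4.9e-13). Cgas, the DNA sensor that acts before it, passed in none of the comparisons, with differences from D1 between -0.07 and 0.08. Aim2, another DNA sensor, was called higher in P (1.26) and in MBNL KD (1.47, SE 0.214, adjusted p = 4.9e-07) from at most 44.9 scaled counts in a D1 library. Over the 99 pathway genes tested in P, 39 were called higher and 3 lower (16.4% and 11.2% of all genes). In RBPMS KD1 10 and 0 of 90 were called (3.06% and 1.62% of all genes), with 5 lower at the adjusted p alone. In MBNL KD 5 and 2 of 88 were called (6.10% and 4.14% of all genes). Set against RBPMS KD1, MBNL KD was called higher for 1 and lower for 16 of 90 (5.88% and 6.03% of all genes).

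Related genes in this list share sequence (Oas1a and Oas1b, Mx1 and Mx2, the Gbp and Ifit genes), and the sources used here do not say how reads that fit several genes or the opposite strand were counted, so the split within such pairs is uncertain. With 3 libraries against 3, an exact permutation test on 1 gene could not go below 0.1, and the adjusted p-values rest on the spread shared across genes in edgeR.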

How the data were processed

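The 12 libraries were poly(A) RNA prepared with a directional kit, and groups were taken from the sample labels. Per the labels and methods, the authors subsampled reads, aligned them with STAR 2.7.11b to mRatBN7.2 and used featureCounts with RefSeq genes to count them. The deposited counts are raw. Their totals (80842635 to 90771289) exceed the depth given in the methods, so both mates of a pair may have been counted, and halved counts were an alternative. The strand setting is not given in the sources used here. The deposited normalised signal values were made by the authors with noisyR and quantile normalization, hold 38 of the 39 genes (not Oas3) and have a minimum of 35, and served only as an alternative.

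Comparisons used R 4.3.3 and edgeR 4.0.16: filterByExpr on the 6 libraries compared, TMM, quasi-likelihood F test, Benjamini-Hochberg over all genes tested, and the call thresholds of the methods (adjusted p under 0.05, absolute log2 fold change over 1). The standard error of a log2 fold change was taken as its size over the root of F. Scaled counts are counts divided by TMM-adjusted library sizes over all 12 libraries, so that 1 count was worth 0.943 to 1.10, and a pseudocount of 1 was added for library ratios. Alternatives used DESeq2 1.42.0 and limma 3.58.1, other filters and scalings, the replicate number as a block, and each library left out in turn. The main fit was also run on simulated counts, drawn only for MBNL KD against D1. Promoters and gene order came from RefSeq tables of GRCr8, whose coordinates differ from those of mRatBN7.2, and no coordinates were converted. Genes given with values of single libraries are those called in a comparison whose higher group had a mean of 100 scaled counts or more. For some of them, among these Stat2, Herc6, Parp14, Ifi35 and Ifi44, not every group is given in full. Some others are given by library after their values were seen: Rsad2, Ifit3, Zbp1, Isg20, Ifnar1, Mavs and Sting1. The interferon-stimulated genes, the wider pathway list and the marker lists were chosen with earlier results of these data known. Tables and figures were made in Python 3.11.15 (pandas 2.3.3, numpy 2.4.6, matplotlib 3.10.9). One gene of the wider list is not reported here.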

Additional observations from a re-analysis of the deposited data

Results flagged for a closer look

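For 8 of 37 interferon-stimulated genes the means of the knockdowns lay on opposite sides of D1, both past the adjusted p, and their difference was itself called in edgeR (adjusted over all genes tested). Of all 15593 genes tested in these 3 comparisons, 4.41% met the same rule, and 2.87% did so with MBNL KD lower, as in all 8. Without 1 library the rule gave 5 to 11 genes, 5 without MBNL KD replicate 2 (Ifi44, Isg15 and Rtp4 were lost) and 11 without MBNL KD replicate 1. It gave 6 with DESeq2 (Oasl2 and Rtp4 were lost) and 5 with limma on the normalised values (Isg15, Oasl2 and Rtp4 were lost). Rtp4 was also lost without D1 replicate 1, D1 replicate 3 or MBNL KD replicate 3. Isg15 was lost without RBPMS KD1 replicate 1, and Cmpk2 with a minimum of 10 counts in every library. The log2 fold change of MBNL KD against RBPMS KD1 was -1.78 for Oasl2 (3.44-fold), -1.39 for Irf1, -1.07 for Isg15 and -1.58 for Bst2. It was -1.08 for Ifi44, -1.29 for Gbp2, -2.47 for Cmpk2 and -1.59 for Rtp4. The MBNL KD libraries overlapped D1 for Isg15 (-0.38, or -0.58 to -0.23 without 1 library) and Rtp4 (-0.51, or -0.97 to -0.25). The call was lost for Isg15 with limma on the normalised values (-0.99) and without RBPMS KD1 replicate 1 (-0.92) or MBNL KD replicate 2 (-0.93) and for Ifi44 without MBNL KD replicate 2 (-0.97). The RBPMS KD1 side was small for Ifi44, at 0.17 above D1. Irf1 had the smallest standard error of the 8, 0.044, and Cmpk2 the largest, 0.376.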

How the results depend on the processing

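Over the interferon-stimulated genes tested, no direction turned in RBPMS KD1 under the alternatives run, and in P that of Ifi27 turned (0.01 with limma on the deposited normalised values and with voom). In MBNL KD against D1, Oasl, at 0.00, turned to -0.14 with limma, -0.19 with voom, -0.00 with no filter, -0.19 without D1 replicate 2 and -0.14 without MBNL KD replicate 1 (up to 0.14 without D1 replicate 1). The other reversals came from leaving out a library: Mx2 in MBNL KD against D1 was -0.38 without MBNL KD replicate 1 (up to 0.55 without replicate 2), and Oas1a in MBNL KD against RBPMS KD1 was 0.08 without MBNL KD replicate 2 and 0.05 without RBPMS KD1 replicate 1 (down to -0.91 without MBNL KD replicate 1). Between the knockdowns Rsad2 was 0.20 without MBNL KD replicate 2 and 0.05 without RBPMS KD1 replicate 3 (down to -0.30 without MBNL KD replicate 1). With no fold threshold the counts were 34 higher and 4 lower of 13103 genes called in P, 30 and 2 of 9393 in RBPMS KD1, 12 and 17 of 10833 in MBNL KD, and 4 and 25 of 11202 between the knockdowns. With limma on the deposited normalised values, 3 genes were called higher in RBPMS KD1 (209 of all genes), 0 higher and 1 lower in MBNL KD (784 of all), and 0 higher between the knockdowns (1050 of all). Voom with quantile normalization gave 2 lower in P and 5 higher in RBPMS KD1, and it moved the share of higher calls among all genes from 59.4% to 45.4% in P, from 65.4% to 53.8% in RBPMS KD1 and in MBNL KD from 59.6% to 828 higher against 827 lower. A minimum of 10 counts in every library left 2933 calls over all genes in P. The call of Oas2 between the knockdowns was lost, leaving 0 genes higher, under DESeq2, the minimum of 10 counts, halved counts, limma, no filter, voom and the replicate block. No pairing by replicate number was seen over 17511 genes: deviations of same-numbered libraries correlated between -0.0224 and 0.0203. In each comparison 0 of 6 libraries correlated best with the library of its own number. A link between same-numbered libraries that is limited to few genes would not show in these values. The replicate block called 8 genes higher in RBPMS KD1 rather than 9, with Oas1a lost, and left the other counts of calls among these genes, beside Oas2, as they were. At the adjusted p alone the block gave 11 higher and 18 lower in MBNL KD and 28 lower between the knockdowns. Over the 38 genes themselves, same-numbered libraries of the knockdowns correlated at 0.598, 0.265 and -0.414, a description of genes that are not independent.

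Leaving out 1 library gave 22 to 23 genes higher and 1 to 2 lower in P, and 6 to 9 higher and 0 lower in RBPMS KD1. It gave 1 to 5 higher and 1 to 4 lower in MBNL KD, and 0 higher and 8 to 16 lower between the knockdowns, the 16 without MBNL KD replicate 1. Calls over all genes ranged from 4757 to 4831, 739 to 783, 1657 to 1728 and 1945 to 2002. The cause of these changes was not tested. Oas1a, Oas2, Oas3, Oasl, Cmpk2, Ifit3 and Zbp1 had means under 100 scaled counts in each group other than P.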

Other observations

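Beyond the genes above, other interferon-induced genes of the wider list were also mostly higher in P, with 29 of 57 tested called higher and 2 lower (16.4% and 11.2% of all genes tested). Ly6e, a membrane protein that affects virus entry, stood at 8250, 8346 and 8327 scaled counts in P and at 87.7, 88.6 and 114 in D1 (log2 fold change 6.42, SE 0.058), and at 39.6 to 117 in both knockdowns. Casp1, the inflammasome protease, was at 1717, 1564 and 1776 in P and 57.1, 49.5 and 40.8 in D1 (5.09, SE 0.100), and it was also called higher in RBPMS KD1 (1.23, SE 0.211). The immunoproteasome subunits Psmb9 and Psmb10 were 3.35 and 2.71 higher in P, and Slfn5, a Schlafen gene, was 3.53 higher. Tnfsf10, which codes for the death ligand TRAIL, had 0 counts in every D1 and MBNL KD library and lay at 302, 264 and 330 in P. Gbp1 and Ifit1bl were lower in P, by -1.07 and -1.61, and Gbp1 was 1.08 higher in RBPMS KD1.

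In MBNL KD, Cxcl10, an interferon-induced chemokine, was at 191, 152 and 222 against 746, 570 and 727 in D1 (-1.86, SE 0.116), and it was 0.44 higher in RBPMS KD1. Irgm2, an immunity-related GTPase gene, was -1.33 from D1 in MBNL KD and 0.26 in RBPMS KD1. Lgals9 and Slfn4 were the genes called higher there, by 1.35 and 1.17, together with Gbp3 at 1.22. In RBPMS KD1, Uba7, which activates ISG15 for conjugation, was 1.27 higher and Trim34 1.24 higher, while in MBNL KD Uba7 was -0.67 from D1 and Trim34 -0.13 (adjusted p = 0.074). Set against RBPMS KD1, MBNL KD was called lower for 14 of 50 of these genes (6.03% of all genes), and at the adjusted p alone 33 were lower and 7 higher (34.5% and 35.1% of all genes), with Cxcl10 at -2.31, Uba7 at -1.94 and Ifi47 at -1.91. Adjusted p-values are from edgeR's quasi-likelihood test, and 12 of the 48 tested in MBNL KD against D1 passed the adjusted p as higher and 18 as lower, where 33.8% and 33.7% of all genes did.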
